A study of Homo sapiens with 4 samples.

Results

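The 33 nucleotide synthesis genes were followed after knockdown of METTL14 in the established neuroblastoma cell line SK-N-BE(2). The genes were taken by symbol from a table of 60671 Ensembl gene rows, all 33 were found, and all 33 passed the filter on low counts, among 16309 genes tested. They were sorted into the steps they catalyse: ribonucleotide reductase, thymidylate synthesis, deoxynucleoside salvage, de novo and salvage pyrimidine synthesis, diphosphate kinases, PRPP synthesis, de novo purine synthesis, the GMP branch, purine salvage and folate. One group of libraries came from SK-N-BE(2) cells with the control hairpin labelled shNC and the other from SK-N-BE(2) cells with a hairpin against METTL14 (shMETTL14), with 2 libraries each. By the study's methods, hairpins were delivered by lentivirus and the infected cells were selected with puromycin to give stable lines. The labels do not say which of the METTL14 hairpins the sequenced cells carried, so a single hairpin or a mixture cannot be told apart.

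Cells build nucleotides by a pair of routes. De novo synthesis assembles the purine ring on PRPP (phosphoribosyl pyrophosphate) with carbon from folates, and the pyrimidine ring from aspartate and carbamoyl phosphate. Salvage enzymes instead return free bases and nucleosides to the pool. Ribonucleotide reductase and the thymidylate enzymes then turn ribonucleotides into the dNTPs used for DNA replication, and several of these genes are transcribed most in S phase. MYC-family factors, of which MYCN is amplified in this line, are known to bind many promoters of these genes. METTL14 is part of the writer complex for N6-methyladenosine on RNA.

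Depth was even, with 18925786 to 19886214 counts in genes per library. METTL14 itself, the target of the hairpin, had 753 and 754 counts in the shNC libraries and 303 and 321 in the shMETTL14 libraries, 41.7% of the control level. The neuroblastoma markers PHOX2A, HAND2, GATA3, ISL1, TH, DBH and MYCN were all present, with MYCN between 49710 and 61727 counts, a value given because this line is known for its amplification. They moved in both directions. DBH (log2 fold change -0.79), TH (-0.38), HAND2 (-0.29), GATA3 (-0.16) and PHOX2A (-0.14) were called lower, and ISL1 (0.28) and MYCN (0.28) were called higher. Defining markers of other cell types were near 0 for CD3E, HBB, PECAM1, CDH5, KRT5 and CDH1, with 4 counts or fewer in every library. PTPRC had 34 and 40 counts in the shNC libraries and 29 and 30 in the shMETTL14 libraries, and was not called. VWF was called lower at 44 and 28 against 10 and 18 counts (log2 fold change -1.34, edgeR adjusted p 0.00703), and EPCAM at 93 and 90 against 62 and 48 counts (-0.72, edgeR adjusted p 0.00583). The fibroblast markers LUM, DCN and PDGFRB were expressed in both groups, with a summed level of 396.6 and 396.9 CPM in the shNC libraries and 387.4 and 393.7 CPM in the shMETTL14 libraries, of which PDGFRB was called lower (-0.19, edgeR adjusted p 0.00224). The part of these markers in the results was not tested. CPM is edgeR's count relative to a library's TMM-normalised size, on its usual scale.

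Most nucleotide synthesis genes were higher after METTL14 knockdown. At an edgeR adjusted p under 0.05, 23 of the 33 were higher, 3 were lower (DUT, IMPDH2 and DCTD) and 7 were not called. Over all tested genes 27.2% were higher and 25.3% lower, 52.5% in either direction. The share of members called higher stood above this background and the share called lower beneath it. The members were chosen with earlier results of these data known, and the background was not matched for expression level. The changes were small: 16 members had an absolute log2 fold change under 0.3, and only UPP1, IMPDH1, NME1, NME2, HPRT1, TK1, APRT and CMPK1 reached 0.5, with ADSL just short of it before rounding. Just 4 members were called with a change of at least 1.5-fold, all higher, where the background was 7.44% higher and 11.4% lower, 18.8% in either direction. The median log2 fold change of the members was 0.21, against -0.001 over all tested genes. Their summed level was 3818.6 and 3884.4 CPM in the shNC libraries and 4312.8 and 4348.7 CPM in the shMETTL14 libraries, so that it reached 112.4% of the control. Groups did not overlap in 31 members, and the same held for 75.5% of tested genes. Of the 26 calls, 19 held in all 7 alternative fits and with each library left out, 17 higher and 2 lower. The other 7, RRM2, TYMS, DCTD, DHODH, NME2, PPAT and GMPS, were lost in at least 1 of them. The split of calls depended on scaling: with upper quartile scaling or library size alone, 19 members were higher and 6 lower. RRM2, TYMS, PPAT and GMPS then lost their calls, and CAD, CTPS2 and PFAS were called lower.

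**Figure D1:**
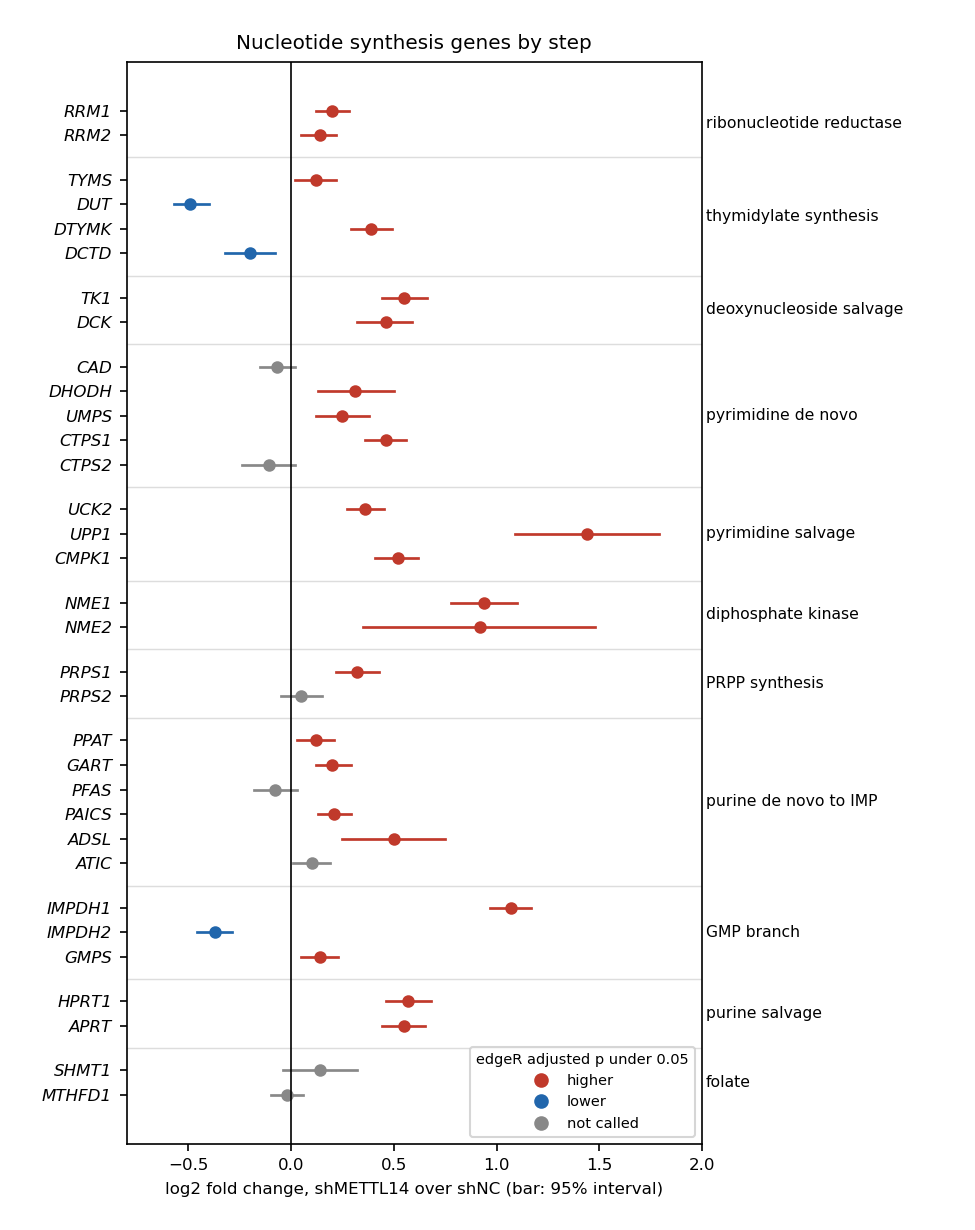
Log2 fold change (shMETTL14 over shNC) of the 33 genes on the x axis, grouped by step, with bars for the 95% interval from the edgeR fit and colours for the call. Most points lie a little to the right of 0, UPP1 (1.44), IMPDH1 (1.07), NME1 (0.94) and NME2 (0.92) lie farthest right, and DUT (-0.49), IMPDH2 (-0.37) and DCTD (-0.20) lie to the left.

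The dNTP genes were considered first. Ribonucleotide reductase makes deoxyribonucleotides from ribonucleotides with a large catalytic subunit, RRM1, and a small subunit, RRM2. RRM1 was at 246.1 and 246.9 CPM in the shNC libraries and 289.1 and 278.0 CPM in the shMETTL14 libraries, a log2 fold change of 0.20 (SE 0.0399, edgeR adjusted p 2.0e-04). RRM2 was at 218.0 and 221.9 CPM against 247.7 and 236.2 CPM, with a log2 fold change of 0.14 (SE 0.041, edgeR adjusted p 0.00756). The subunits thus stood at 115.0% and 110.0% of the control level, and the groups did not overlap for either. RRM2 was not called under upper quartile scaling (0.07), under library size alone (0.09) or without shMETTL14 library 1 (0.11, adjusted p 0.131). The ratio of RRM1 to RRM2 counts was 1.13 and 1.11 in the shNC libraries and 1.17 and 1.18 in the shMETTL14 libraries.

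Thymidylate synthesis was the step with the most mixed directions, 2 genes higher and 2 lower. DUT encodes the dUTPase, which removes dUTP and supplies dUMP. It was at 266.1 and 280.0 CPM in the shNC libraries and 193.3 and 195.7 CPM in the shMETTL14 libraries, so both knockdown libraries lay far beneath both controls. Its log2 fold change of -0.49 (SE 0.0412, edgeR adjusted p 1.9e-09) was the largest decrease of the 33. DCTD, the dCMP deaminase that also makes dUMP, fell from 67.5 and 74.6 CPM to 62.7 and 60.7 CPM, a log2 fold change of -0.20 (SE 0.0572, edgeR adjusted p 0.00507). This call was lost without shNC library 2 (-0.12, adjusted p 0.119) and without shMETTL14 library 2 (-0.17, adjusted p 0.0542). TYMS, the thymidylate synthase that methylates dUMP to dTMP, was at 86.1 and 84.2 CPM against 91.0 and 94.3 CPM. Its change of 0.12 (SE 0.0479, edgeR adjusted p 0.0387) only narrowly passed the threshold, and was not called with any 1 library left out (0.10 to 0.15) nor in 5 of the 7 alternative fits. DTYMK, the kinase that carries dTMP to dTDP, rose more clearly, from 70.2 and 71.5 CPM to 91.3 and 94.7 CPM (0.39, SE 0.0492, edgeR adjusted p 7.2e-07).

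Both deoxynucleoside salvage kinases rose. TK1, the cytosolic thymidine kinase, was at 54.0 and 56.5 CPM in the shNC libraries and 82.8 and 79.2 CPM in the shMETTL14 libraries. This was 146.7% of the control level (log2 fold change 0.55, SE 0.0537, edgeR adjusted p 1.7e-08). DCK, the kinase for deoxycytidine and purine deoxynucleosides, rose from 38.3 CPM in each control library to 52.0 and 53.0 CPM (0.46, SE 0.0632, edgeR adjusted p 2.8e-06). The summed level of the kinase pair was 92.3 and 94.7 CPM against 134.8 and 132.2 CPM, while that of the 4 thymidylate genes was 489.9 and 510.3 CPM against 438.3 and 445.4 CPM. DUT was the largest part of the thymidylate sum, with a mean of 273.0 CPM in the shNC libraries and 194.5 CPM in the shMETTL14 libraries. Of the others in that sum, DCTD fell and TYMS and DTYMK rose.

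Because E2F factors are known to drive S-phase genes, promoters were searched for 4 spellings of an E2F word, TTTCCCGC, TTTGGCGC, TTTCGCGC and TTTGCCGC, on both strands. RefSeq windows (GRCh38.p14) of 250 bases before to 50 after each start were at hand for 31 of the 33 genes, not for IMPDH2 and ADSL. A word was found in 5 of the 31 (TYMS, DUT, DCK, PRPS2 and GART), or 16.1%, where 3.99% of 27305 genes had one. Those were all genes with a window, expressed here or not. They were not matched to the members in expression or base content. None of the words printed here overlapped another motif searched. Those in DUT and TYMS are shown because the pair moved in opposite directions, with the word in capitals, 5′ to 3′ along the gene's strand. For DUT they begin 42 and 27 bases before 1 of its starts, at chr15:48332144-48332173 and chr15:48332159-48332188, and for TYMS 39 bases before its start, at chr18:657603-657632, all on the plus strand.
DUT, first word: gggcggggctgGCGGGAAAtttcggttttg
DUT, second word: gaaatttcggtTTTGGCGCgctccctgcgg
TYMS: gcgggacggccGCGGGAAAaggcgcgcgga
A match is a description of the letters only. Genes with a word were called higher (DCK, GART and TYMS), lower (DUT) or not called (PRPS2).

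S-phase and G2/M genes outside the members moved in these libraries too. Of 30 S-phase markers, 25 were higher and 2 lower (83.3% and 6.67%), where all tested genes gave 27.2% and 25.3%. The 2 lower were CASP8AP2 and POLA1, named after their values were seen. The median log2 fold change was 0.31, and CCNE1 (1.46), CCNE2 (1.2), CLSPN (0.89) and FEN1 (0.84) rose most. The summed level of the 30 markers was 2962.8 and 2965.7 CPM in the shNC libraries and 3779.5 and 3757.5 CPM in the shMETTL14 libraries. Of 30 G2/M markers, 22 were lower (73.3%) and 2 higher (6.67%). The latter, CCNA2 (0.10) and KIF23 (0.11), were named after their values were seen and were not called in 6 of the 7 alternative fits. The values were lowest for TOP2A (-1.24), CENPF (-0.73), HMMR (-0.72) and CENPE (-0.60). The summed G2/M level was 7052.2 and 7164.7 CPM against 5571.4 and 5455.2 CPM. The part of these markers in the changes of the dNTP genes was not tested. In bulk libraries a larger share of cells in S phase and more RNA per cell cannot be told apart. In its own assays of METTL14 knockdown the study reported a longer G0-G1 phase, lower EdU signal and less cyclin D1 and E1, which it probed as protein. CCNE1 RNA, which encodes cyclin E1, was higher here, and RNA is a different measure from protein. How those assays relate to these RNA values was not tested.

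**Figure D2:**
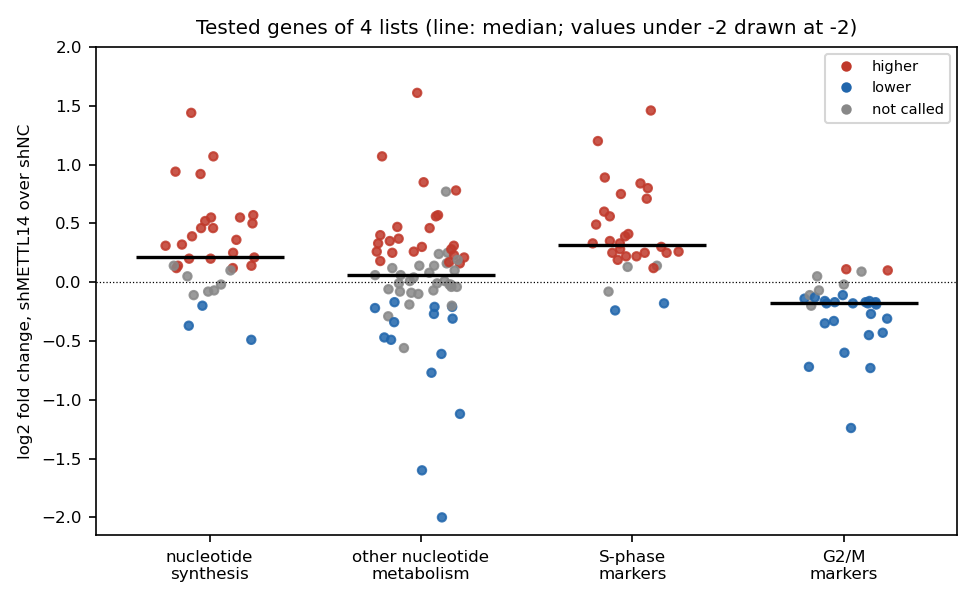
Log2 fold change (y axis, shMETTL14 over shNC) of each tested gene in 4 lists, with the median as a line, colours for the edgeR call and values under -2 drawn at -2. Nucleotide synthesis genes (median 0.21) lie between the S-phase markers (0.31) and other nucleotide metabolism genes (0.06), and most G2/M markers lie beneath 0 (median -0.17).

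Pyrimidine synthesis begins with CAD, the protein that joins the opening reactions of the route. CAD was at 175.9 and 173.6 CPM in the shNC libraries and 170.3 and 163.6 CPM in the shMETTL14 libraries, and was not called (log2 fold change -0.07, 95% interval -0.15 to 0.02). The mitochondrial dehydrogenase of the next step, DHODH, was at 17.7 and 17.1 CPM against 22 and 21.1 CPM and was called higher (0.31, SE 0.0901, edgeR adjusted p 0.00591), though not with DESeq2 (adjusted p 0.0694). UMPS, which completes UMP, rose from 46.8 and 52.2 CPM to 57.8 and 60.1 CPM (0.25, SE 0.0628, edgeR adjusted p 0.00176). The route thus held 2 genes that rose behind an opening enzyme with no call.

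CTP synthase, which aminates UTP to CTP, is encoded by the paralogs CTPS1 and CTPS2. CTPS1 was at 114.4 and 116.1 CPM in the shNC libraries and 151.6 and 166.2 CPM in the shMETTL14 libraries (log2 fold change 0.46, SE 0.0476, edgeR adjusted p 3.9e-08). CTPS2 was at 50.6 and 50.4 CPM against 47.7 and 45.9 CPM and was not called (-0.11, 95% interval -0.24 to 0.02). The ratio of CTPS1 to CTPS2 counts was 2.26 and 2.30 in the controls and 3.18 and 3.62 after knockdown, with no overlap. Per kilobase of exonic length (11517 bases for CTPS1, 5510 for CTPS2) the ratio was 1.08 and 1.10 against 1.52 and 1.73. That ratio depends on the length taken. The longest coding transcripts are 3201 and 4319 bases, and by them CTPS1 would lie further above CTPS2 in both groups. The coding sequences of the paralogs were 69.8% identical over 1753 aligned bases, and they lie on chromosome 1 and chromosome X.

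The pyrimidine salvage genes all rose. UPP1, the uridine phosphorylase that interconverts uridine and uracil, was weakly expressed and had the largest change of the 33. It had 60 and 78 counts in the shNC libraries and 177 and 196 counts in the shMETTL14 libraries, or 3.01 and 4.07 CPM against 9.04 and 10.2 CPM. The change was 1.44 on the log2 scale (SE 0.17, edgeR adjusted p 2.9e-07), 271.6% of the control level. The gene lies at chr7:48088628-48108733 on the plus strand (GENCODE 29, GRCh38). UCK2, the uridine-cytidine kinase, rose from 112.1 and 114.2 CPM to 142.3 and 148.6 CPM (0.36, SE 0.0444, edgeR adjusted p 5.2e-07). CMPK1, the UMP/CMP kinase shared by both pyrimidine routes, rose from 65.4 and 67.7 CPM to 95.1 CPM in each knockdown library (0.52, SE 0.0493, edgeR adjusted p 1.3e-08).

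NME1 and NME2 encode nucleoside diphosphate kinases, which make triphosphates from diphosphates. They lie next to each other on chromosome 17, NME1 at chr17:51153536-51162428 and NME2 at chr17:51165435-51171747, both on the plus strand. NME1 was at 72.0 and 69.8 CPM in the shNC libraries and 118.7 and 153.6 CPM in the shMETTL14 libraries, so the knockdown libraries differed from each other but both lay above the controls. The change was 0.94 on the log2 scale (SE 0.0761, edgeR adjusted p 9.5e-10), and 0.75 without shMETTL14 library 2. NME2 had only 39 and 25 counts against 62 and 58 (0.92, SE 0.274, edgeR adjusted p 0.00767), and was not called with DESeq2 (adjusted p 0.0604) or without shNC library 2 (0.66, adjusted p 0.0944). The values of both are uncertain. In GENCODE 29, 64.7% of the longest coding transcript of NME1 and 69.6% of that of NME2 are shared with the readthrough gene NME1-NME2, which had 0 counts in every library. How reads in shared exons were counted is not given in the sources used here. The coding sequences of NME1 and NME2 were also 80.9% identical over 456 aligned bases, so reads could be split. The ratio of NME1 to NME2 counts overlapped between groups, at 36.8 and 53.4 against 37.5 and 51.0.

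**Figure D3:**
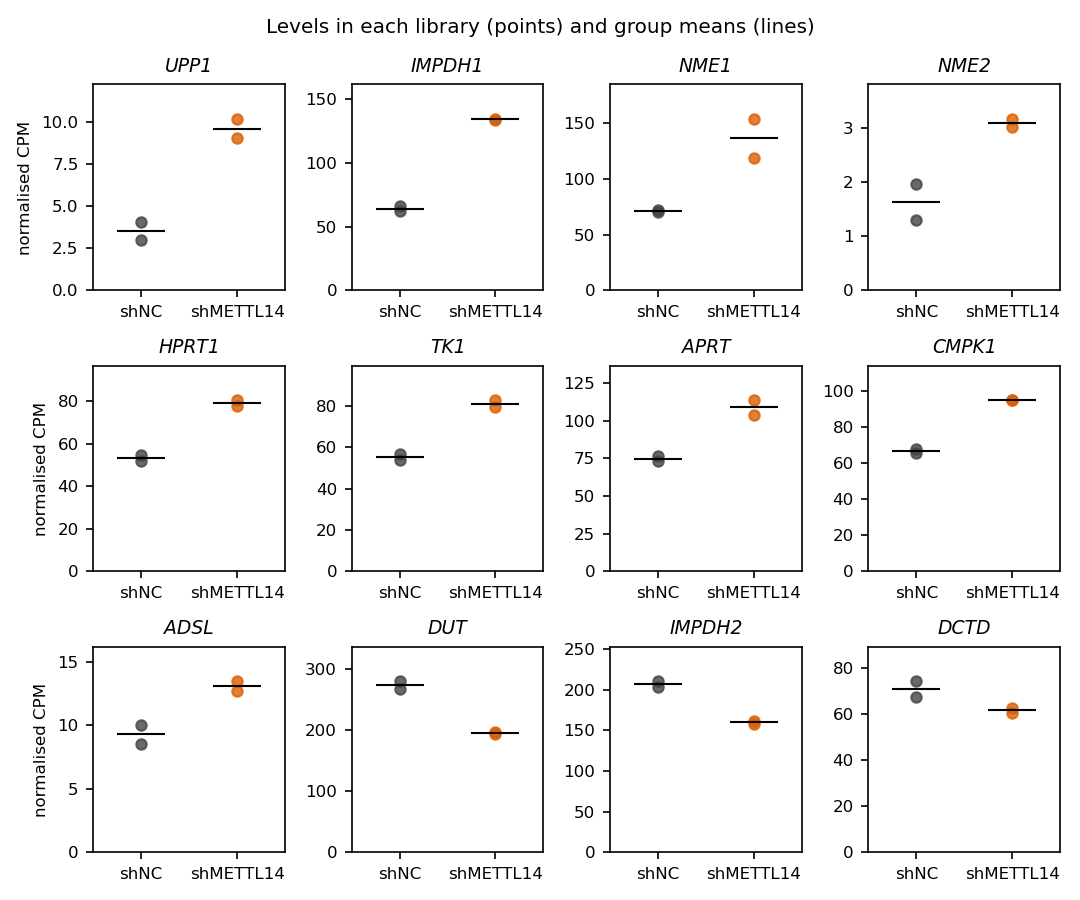
Normalised CPM (y axis, from 0) of 12 genes in each of the 4 libraries, as points, with group means as lines, for the 9 genes with the largest increases and the 3 lower ones. In each panel the shMETTL14 points lie wholly above or beneath the shNC points. NME1 has the widest spread between the shMETTL14 libraries (118.7 and 153.6 CPM).

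Purine synthesis starts from PRPP, made by PRPS1 and PRPS2, both on the X chromosome. PRPS1 rose from 65.9 and 67.4 CPM to 83.9 and 82.7 CPM (log2 fold change 0.32, SE 0.0501, edgeR adjusted p 1.3e-05). PRPS2 was at 80.6 and 85.9 CPM in the shNC libraries and 86.7 and 85.7 CPM in the shMETTL14 libraries, with overlapping groups and no call (0.05, 95% interval -0.05 to 0.15), and was at -0.02 under upper quartile scaling. The ratio of PRPS1 to PRPS2 counts was 0.818 and 0.785 in the shNC libraries and 0.967 and 0.965 in the shMETTL14 libraries. Their coding sequences were 76.6% identical over 939 aligned bases.

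Of the 6 genes that build IMP on PRPP, 4 were higher and 2 were not called. PAICS, which carries a carboxylase and a ligase activity, was the most highly expressed of the 33 both in total and per kilobase. It was at 594.6 and 592.8 CPM in the shNC libraries and 694.4 and 679.3 CPM in the shMETTL14 libraries, a log2 fold change of 0.21 (SE 0.0366, edgeR adjusted p 5.0e-05). PPAT, the amidotransferase of the committed step, was at 118.8 and 116.2 CPM against 126.2 and 129.6 CPM (0.12, SE 0.0442, edgeR adjusted p 0.0239). That call was lost under upper quartile scaling (0.06, adjusted p 0.31), library size alone (0.08, adjusted p 0.149) and DESeq2 (adjusted p 0.146). It was also lost without shNC library 2 (0.11, adjusted p 0.0804) and without shMETTL14 library 2 (0.11, adjusted p 0.147). GART, which carries several activities of the route, rose from 180.9 and 185.8 CPM to 212.5 and 210.0 CPM (0.20, SE 0.0406, edgeR adjusted p 2.2e-04).

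The remaining genes of the IMP route are ADSL, ATIC and PFAS. ADSL, the lyase that acts in IMP synthesis and again on the way to AMP, had 200 and 164 counts in the controls and 265 and 245 after knockdown (log2 fold change 0.50, SE 0.12, edgeR adjusted p 0.00148). Its level is uncertain, because 82.5% of its longest coding transcript is shared with another annotated gene, AL022238.4, which had 1 count or none per library. ATIC, which closes the ring, was at 167.3 and 178.2 CPM against 185.4 and 184.5 CPM (0.10, edgeR adjusted p 0.0591). ATIC was called without shNC library 2 (0.15, adjusted p 0.0106). PFAS, the FGAM synthase, was not called at 73.7 and 73.5 CPM against 69.6 and 69.8 CPM (-0.08, edgeR adjusted p 0.205).

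PPAT and PAICS are transcribed away from each other from a common stretch of chromosome 4, which is shown because both genes were called higher. Between their starts lie 125 bases at chr4:56435616-56435740 (GRCh38.p14, plus strand), 76.0% of them G or C, with PPAT on the left and PAICS on the right. Capitals mark 3 GC boxes (GGGCGG).
PPAT to PAICS: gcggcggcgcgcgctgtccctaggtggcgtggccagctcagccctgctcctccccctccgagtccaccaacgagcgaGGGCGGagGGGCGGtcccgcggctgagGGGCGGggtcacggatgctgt
A GC box, on either strand, was found in the windows of 26 of 31 members (83.9%). It was found in 48.3% of all genes with a window, expressed here or not. The ratio of PPAT to PAICS counts was 0.200 and 0.196 in the shNC libraries and 0.182 and 0.191 in the shMETTL14 libraries, a difference of -0.09 on the log2 scale.

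The E-box CACGTG, the word bound by MYC-family factors, was looked for in the same windows. It reads the same on both strands. A total of 7 of 31 members held it (22.6%): DCK, DHODH, NME1, PPAT, PAICS, ATIC and MTHFD1. Of all genes with a window 8.77% did, a background not matched to the members in expression or base content. The first 5 were called higher, and ATIC and MTHFD1 were not called. Of all 33 members 69.7% were called higher, a share near that of these 7 genes. The calls of DHODH and PPAT were lost in at least 1 alternative fit. The sites that lie before a start are shown along the gene's strand, with the E-box in capitals. DCK lies at chr4:70993521-70993550 (plus), DHODH at chr16:72008573-72008602 (plus), PPAT at chr4:56435780-56435809 (minus), ATIC at chr2:215312001-215312030 (plus) and MTHFD1 at chr14:64388323-64388352 (plus). The PPAT site is also the site counted for PAICS, 41 bases into that transcript.
DCK: cgccccggccttCACGTGacctggcgtgcg
DHODH: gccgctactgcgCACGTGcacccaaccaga
PPAT: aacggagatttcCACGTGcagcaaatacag
ATIC: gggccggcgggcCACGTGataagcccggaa
MTHFD1: tggccagtccctaagCACGTGggttgggtt
MYCN itself, named here for its known link to this word, was higher at 0.28 on the log2 scale (SE 0.0334, edgeR adjusted p 3.8e-07), and its part in these changes was not tested. A CCAAT box (CCAAT, both strands) was found in 12 of 31 members (38.7%) and in 39.7% of all genes.

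The GMP branch held the clearest contrast. IMP dehydrogenase, which sends IMP towards GMP, is encoded by IMPDH1 (chr7:128392277-128410252, minus strand) and IMPDH2 (chr3:49024325-49029408, minus strand). IMPDH1 was at 66.1 and 62.1 CPM in the shNC libraries and 134.7 and 133.8 CPM in the shMETTL14 libraries. The log2 fold change was 1.07 (SE 0.0482), with the smallest adjusted p of the 33 (edgeR, 7.7e-14). IMPDH2 went the other way, from 203.3 and 211.0 CPM to 157.7 and 162.1 CPM (-0.37, SE 0.0419, edgeR adjusted p 1.4e-07). Both calls held in all 7 alternative fits and with each library left out.

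The balance within the pair therefore shifted. There were 0.325 and 0.294 IMPDH1 counts per IMPDH2 count in the shNC libraries and 0.854 and 0.826 in the shMETTL14 libraries, a difference of 1.44 on the log2 scale. IMPDH2 still had more counts, and its level per kilobase of exonic length was 57.7 CPM against 74.7 CPM in the controls. The coding sequences were 76.7% identical over 1542 aligned bases, and rows of IMPDH1 pseudogenes held at most 33 counts each. GMPS, the GMP synthetase that follows, was at 137.7 and 135.6 CPM against 148.9 and 151.9 CPM (0.14, SE 0.0426, edgeR adjusted p 0.00933). It was not called under upper quartile scaling (0.07, adjusted p 0.171), library size alone (0.09, adjusted p 0.0715) or DESeq2 (adjusted p 0.0734), nor without shMETTL14 library 2 (0.13, adjusted p 0.0703).

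In all, ratios were formed for 6 pairs, and in 5 of them the groups did not overlap. The exact permutation test (two-sided, 2 against 2 libraries) gave p = 0.33 for those 5, the smallest p it allows, and p = 1 for NME1 over NME2. Adjusted over the 6 pairs the values were 0.4 and 1, so this design cannot show a shift of a ratio by that test.

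**Figure D4:**
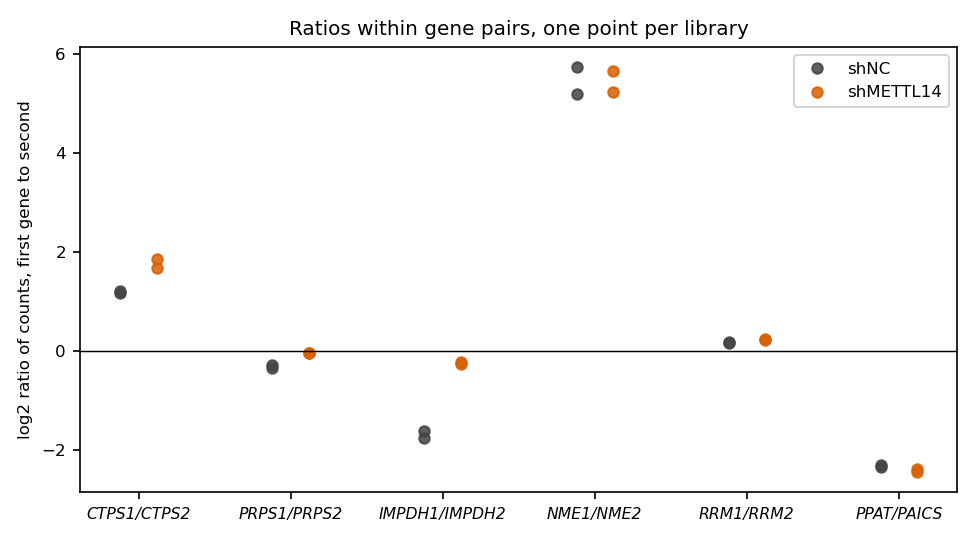
Log2 ratio of counts (y axis, first gene to second) for 6 gene pairs, with 1 point per library and colours for the groups. The IMPDH1/IMPDH2 ratio has the widest gap between groups (1.44), followed by CTPS1/CTPS2 (0.57) and PRPS1/PRPS2 (0.27), and NME1/NME2 overlaps.

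Both purine salvage enzymes rose by a like amount. HPRT1, which returns hypoxanthine and guanine to IMP and GMP, was at 51.9 and 54.4 CPM in the shNC libraries and 77.4 and 80.5 CPM in the shMETTL14 libraries (log2 fold change 0.57, SE 0.0543, edgeR adjusted p 1.3e-08). APRT, which returns adenine to AMP, rose from 72.9 and 76.3 CPM to 103.9 and 113.8 CPM (0.55, SE 0.0521, edgeR adjusted p 1.3e-08). Their summed level was 124.8 and 130.7 CPM against 181.4 and 194.3 CPM.

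Median changes were also set side by side for the routes. The median log2 fold change was 0.50 for deoxynucleoside salvage, 0.52 for pyrimidine salvage and 0.56 for purine salvage, the pyrimidine value being that of CMPK1, which serves both routes. It was 0.25 for de novo pyrimidine synthesis and 0.16 for the genes that build IMP. The ranges overlapped, since UCK2 (0.36) lay beneath the de novo genes CTPS1 (0.46) and ADSL (0.50). These medians rest on 2 to 6 genes each and the difference between routes was not tested.

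The folate enzymes did not pass the test. MTHFD1, which supplies the formyl group for purines, was at 264.1 and 274.4 CPM in the shNC libraries and 264.6 and 266.8 CPM in the shMETTL14 libraries, with overlapping groups (log2 fold change -0.02, 95% interval -0.10 to 0.06). SHMT1, the cytosolic serine hydroxymethyltransferase, was at 24.6 and 22.2 CPM against 25.6 and 26.1 CPM (0.14, 95% interval -0.04 to 0.32). Without shNC library 2 the value of MTHFD1 was 0.01.

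Levels between genes were compared per kilobase of exonic length. In the shNC libraries PAICS was highest at 79.0 ± 0.174 (SD, n = 2), followed by IMPDH2 at 74.7 ± 1.97 and DUT at 74.3 ± 2.68, which did not differ beyond their spread, and RRM1 at 59.0 ± 0.13. In the shMETTL14 libraries the order was PAICS at 91.4 ± 1.42, RRM1 at 67.9 ± 1.88, APRT at 60.4 ± 3.89, IMPDH2 at 57.7 ± 1.11 and DUT at 52.9 ± 0.456 (SD, n = 2 each), of which APRT and IMPDH2 did not differ beyond their spread. At the low end stood NME2, UPP1, ADSL, DHODH and SHMT1, at 0.62 to 3.22 CPM per kilobase in the controls, NME2 and ADSL with the shared exons named above. Exonic length here joins the exons of all transcripts, which lowers the value of genes with long, rarely used exons.

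A wider list of 79 other genes of nucleotide and folate metabolism was read beside the members. Of these, 67 could be tested, and 23 were higher and 14 lower, 55.2% in either direction, close to the background of 52.5%. Among 10 other dNTP genes, 7 were higher and 1 was lower. DCTPP1, a pyrophosphatase that removes modified dCTP, had 1018 and 1044 counts in the shNC libraries and 1839 and 1846 in the shMETTL14 libraries (log2 fold change 0.85, SE 0.0527, edgeR adjusted p 1.5e-11). CMPK2, the mitochondrial UMP/CMP kinase and 1 of the 7, had 10 and 8 counts against 24 and 31 (1.61, SE 0.431, edgeR adjusted p 0.00342). It passed the filter on low counts only through the shMETTL14 libraries, where it was higher. Its call is therefore not separate from that filter, and it dropped out when every library had to reach 10 counts. TK2, the mitochondrial thymidine kinase, fell from 238 and 221 counts to 140 and 127 (-0.77, SE 0.128, edgeR adjusted p 2.7e-05), whereas its cytosolic counterpart TK1 rose.

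Among 18 tested purine genes outside the members, 6 were higher and 3 lower (33.3% and 16.7%). Over all tested genes 27.2% were higher and 25.3% lower. PNP, the purine nucleoside phosphorylase that frees the bases used by HPRT1, rose from 1930 and 1914 counts to 3270 and 3284 (log2 fold change 0.78, SE 0.0441, edgeR adjusted p 3.0e-12). AK5, an adenylate kinase of brain, rose from 101 and 105 counts to 235 and 195 (1.07, SE 0.144, edgeR adjusted p 1.9e-06). AMPD3, an AMP deaminase named after its values were seen, had the largest decrease of these purine genes (log2 fold change -0.61, edgeR adjusted p 0.0146). Of 19 folate genes tested, 5 were higher and 4 lower (26.3% and 21.1%), near those background shares.

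Of the other pyrimidine genes, 2 were higher and 2 lower among 5 tested (40.0% each), where all tested genes gave 27.2% and 25.3%. DPYS, a pyrimidine breakdown enzyme and 1 of the lower, had 16 and 15 counts in the shNC libraries against 7 and 3 (log2 fold change -1.60, SE 0.56, edgeR adjusted p 0.0205). It passed the filter on low counts only through the shNC libraries, where it was higher, so its call is not separate from that filter. Nucleotidases and further kinases gave 3 higher and 2 lower among 10, near the shares of all tested genes (27.2% and 25.3%). Nucleoside transporters gave 0 higher and 2 lower among 5 (40.0% lower, where all tested genes gave 25.3%). SLC28A3, a concentrative nucleoside transporter, had 14 and 10 counts in the shNC libraries and 0 and 1 in the shMETTL14 libraries, at least 3.96-fold lower against a floor of 3 counts per library. Like DPYS, it passed the filter on low counts only through the shNC libraries. The 12 genes that could not be tested were CDA, TYMP, UPP2, GDA, XDH, AMPD1, PRPS1L1, MTHFS, AMT, GLDC, SLC28A1 and SLC28A2.

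Overlap with other genes limits some of the counts. Of the 33 members, 14 share exonic bases with another gene in GENCODE 29 and 10 do so with a protein-coding one. TYMS shares 64.6% of its longest coding transcript, mostly with ENOSF1 on the opposite strand, whose counts were 585 and 612 in the shNC libraries and 390 and 423 in the shMETTL14 libraries. UCK2 shares 27.5% with TMCO1 and other genes, and DUT shares 17.4% with the antisense gene AC023355.1, which had 101 and 94 counts against 43 and 48. RRM2 shares 29.3% with AC007240.1, but that gene had no row among the counted genes, so no reads were assigned to it. Whether the counting used strand is not given in the sources used here, so reads of a gene and its antisense partner cannot be told apart. Rows of 44 annotated pseudogenes of the members held 73 to 88 counts per library in all.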

How the data were processed

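RNA sequencing libraries of SK-N-BE(2) cells (2 shNC, 2 shMETTL14; Illumina NovaSeq, paired ends) were read from 1 table. The authors deposited raw read counts per Ensembl gene, with no normalization, in the layout of htseq-count. The submitters' processing notes name GRCh38, HISAT2 2.1.0, StringTie 1.3.6, HTSeq 0.13.5 and edgeR, without role. The annotation release and strand setting are not given in the sources used here. Lines naming no gene (19.1% to 19.9% of counts) were left out. The table held 0 other sample columns.

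Counts were tested with edgeR 4.0.16 in R 4.3.3 (quasi-likelihood F-test, TMM, filterByExpr with minimum count 10 and total 15, group alone), with Benjamini-Hochberg adjustment over 16309 genes, called at an adjusted p under 0.05. SE was taken from the F statistic. Nothing in the labels says that replicates were separate cultures, so p-values measure the spread between these libraries, which may be technical. Replicates differed by more than sampling noise (mean chi-square per gene 2.78 for shNC and 2.27 for shMETTL14, where noise alone gives about 1). On simulated counts with 200 changed genes, 10 draws each, the fit recovered 62% at a log2 change of 0.5 and 79.2% at 1. Of its calls, 6.46% and 5.84% were false. In the data 52.5% of tested genes were called and most members changed by less than 0.5, so these shares need not hold here. Alternatives were other scalings and filters, DESeq2 1.42.0, the replicate block and leaving out each library. Exon overlap and length came from GENCODE 29, promoters from RefSeq (GRCh38.p14). Members and lists were chosen with earlier results of these data known. All members could be named, and from other lists the largest called changes and the untested genes. A few genes of these lists are not reported here. At 18925786 to 19886214 counts in genes per library, weakly expressed members (UPP1, NME2) were measured least precisely. Intervals cover counting error and library spread only.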

Additional observations from a re-analysis of the deposited data

How the results depend on the processing

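The replicate numbers share only a number: same-numbered libraries deviated together with r = 0.00483 over genes. When replicate number entered as a block, 27 members were called, 24 higher and 3 lower, ATIC being added (0.10, adjusted p 0.0297). With upper quartile scaling the members had 6 lower calls and a median of 0.14, and with library size alone 6 and 0.17, which follows from a shift of all genes by -0.068 and -0.045. The median was 0.19 once every library had to reach 10 counts. It ran from 0.20 to 0.23 with 1 library left out (the lone library of a group is then assumed to vary like the other group). DESeq2 called 21 members, and the cause was not tested. The number of G2/M markers called higher, 2, was 0 with RLE, upper quartile, library size alone, DESeq2, the filter of 10 counts per library and no filter, and 0 to 1 with 1 library left out. S-phase markers called lower ran from 1 to 2 with 1 library left out. PRPS2 reversed to -0.02 under upper quartile scaling and MTHFD1 (-0.05 to 0.01 with 1 library left out) to 0.01 without shNC library 2, neither called. Counts of members called stayed between 21 and 27 in all these fits. UPP1, NME2 and ADSL had the lowest counts; for NME2 and ADSL, depth and reads in shared exons cannot be told apart.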
